A study of Mus musculus with 24 samples.

Results

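The cathepsins described here were the genes Ctsa, Ctsb, Ctsc, Ctsd, Ctse, Ctsh, Ctsk, Ctsl, Ctss and Ctsz, which are 10 of the 24 symbols beginning with Cts and 10 of the 24970 gene symbols in the expression tables. They were chosen by name and on their measured values of knockout against control in the same 24 libraries, so the differences between genotypes below are a description of the chosen genes and no test of them. RNA sequencing was performed on sorted alveolar type 2 cells (AT2 cells, the surfactant-producing epithelial cells of the lung alveolus) with 3 control and 3 knockout libraries, each group drawn from pools of 3 mice. The labels do not say whether each of these libraries is a pool of its own or the libraries of a group share 1 pool, in which case their spread is that within a pool. It was also performed on whole lungs after 6 days of tamoxifen (3 mice of each genotype), on whole lungs after 6 months of booster tamoxifen (4 mice of each genotype) and on organoids grown from AT2 cells for 14 days in AMM medium (2 mice of each genotype). All mice carried Sftpc-CreER/+; R26-tdT/+, a tamoxifen-inducible Cre recombinase driven from the surfactant protein C gene together with a red fluorescent reporter, and every group received tamoxifen. The knockouts were in addition let7afd-/-. The let-7 genes Mirlet7a-1, Mirlet7f-1 and Mirlet7d were thereby targeted in the cells that express Sftpc and not in the other cells of a whole lung. The genotype names no other let-7 gene. The controls therefore shared Cre, reporter and tamoxifen with the knockouts, and the ages and sexes of the mice were not given in the labels used here.

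Cathepsins are proteases that act mainly in the acid interior of lysosomes, where they break down proteins delivered by endocytosis and autophagy. Most are made as inactive proenzymes, tagged with mannose 6-phosphate in the Golgi, and activated when their propeptide is cut off in the acid compartment, and cystatins and some serpins inhibit those that escape. In the lung, AT2 cells use cathepsin H to process surfactant proteins, whereas macrophages are known for abundant cathepsins B, D, K, L and S, of which K, L and S can digest elastin or collagen. The let-7 family represses messenger RNAs that pair with its seed, the bases at positions 2 to 8.

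The microRNAs of the targeted genes share 1 seed, shown in capitals because a direct target would carry its complement (RefSeq, GRCm38.p6).
mmu-let-7a-5p: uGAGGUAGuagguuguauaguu
mmu-let-7d-5p: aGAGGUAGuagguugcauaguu
mmu-let-7f-5p: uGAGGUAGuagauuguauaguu
The genes lie within chr13:48536078-48538260 on the minus strand. They were listed at 0 TPM in all 24 libraries of both genotypes, and libraries made from poly(A) RNA do not hold mature microRNAs, so the deletion could not be checked in these data.

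The longest annotated 3′ UTR of each cathepsin gene (GENCODE M21, GRCm38) was searched on the transcript strand for CTACCTCA (8mer), CTACCTC and TACCTCA (7mers, counted where they were not part of an 8mer). None of the 10 genes held the 8mer, which was found in 3.11% of 20659 genes. The matches of 7 bases reported here are those of Ctsb and Ctsl, and 15.1% of the 20659 genes held at least 1 match of 7 or 8 bases. The sites of these genes are shown with flanking bases, the match in capitals, because they are the places where loss of let-7 could act directly. Those of Ctsb lie 588 and 1423 bases into a UTR of 3594 bases, at chr14:63142901-63142928 and chr14:63143736-63143763. Those of Ctsl, at chr13:64363368-64363395 and chr13:64359508-64359535 on the minus strand, lie 719 and 4579 bases into the longest of its annotated UTRs. Gnptab, which encodes the enzyme that starts the mannose 6-phosphate tag of cathepsins, is shown beside them because its UTR holds an 8mer, at chr10:88445847-88445875.
Ctsb, at base 588 of the UTR (7mer-A1): atttttatgctttgtgTACCTCAaccaa
Ctsb, at base 1423 of the UTR (7mer-m8): acctgcaactccctccCTACCTCgcata
Ctsl, at base 719 of the UTR (7mer-A1): atagggctaataagctTACCTCAaatat
Ctsl, at base 4579 of the UTR (7mer-A1): ttatgtgaactttctgTACCTCAatgtt
Gnptab, at base 23 of the UTR (8mer): ttcatttgaaagtcacCTACCTCAgcatc
A match describes letters only, and no binding was measured.

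Promoters, from 250 bases before to 50 bases after the annotated start, were taken from RefSeq (GRCm38.p6), where 7 of the 10 genes were matched by symbol, Ctsa with 2 starts. Both strands were searched for CACGTG and its longer form TCACGTGA, the centre of the element bound by the lysosomal transcription factors TFEB, TFE3 and MITF, for GAGGAAGT, a site of the myeloid factor PU.1, and for TGAGTCA, a site of AP-1. Every TCACGTGA also counts as a CACGTG. Of 32851 promoters, 7.15% held CACGTG, 0.974% TCACGTGA, 3.20% GAGGAAGT and 5.20% TGAGTCA. The promoters of Ctsa and Ctsd are printed because they hold the longer lysosomal motif and that of Ctss because it holds the PU.1 motif, with the matches in capitals. That of Ctsa, from its second start, is chr2:164833523-164833822 on the plus strand and holds TCACGTGA 2 times. That of Ctsd is chr7:142387778-142388077 on the minus strand and holds CACGTG 2 times, 1 of them as TCACGTGA. That of Ctss is chr3:95526536-95526835 on the plus strand and holds GAGGAAGT 1 time, read on the other strand.
Ctsa promoter: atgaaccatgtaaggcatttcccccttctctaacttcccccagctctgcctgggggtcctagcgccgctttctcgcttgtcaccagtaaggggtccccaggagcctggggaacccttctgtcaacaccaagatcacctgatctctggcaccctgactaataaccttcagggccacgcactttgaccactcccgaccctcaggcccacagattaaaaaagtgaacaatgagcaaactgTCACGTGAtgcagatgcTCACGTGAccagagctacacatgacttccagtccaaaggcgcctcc
Ctsd promoter: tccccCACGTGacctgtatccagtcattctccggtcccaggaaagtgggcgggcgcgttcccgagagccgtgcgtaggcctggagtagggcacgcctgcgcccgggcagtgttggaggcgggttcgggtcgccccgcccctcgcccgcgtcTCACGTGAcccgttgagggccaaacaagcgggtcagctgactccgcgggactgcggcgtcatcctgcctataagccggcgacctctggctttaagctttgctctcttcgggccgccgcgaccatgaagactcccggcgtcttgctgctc
Ctss promoter: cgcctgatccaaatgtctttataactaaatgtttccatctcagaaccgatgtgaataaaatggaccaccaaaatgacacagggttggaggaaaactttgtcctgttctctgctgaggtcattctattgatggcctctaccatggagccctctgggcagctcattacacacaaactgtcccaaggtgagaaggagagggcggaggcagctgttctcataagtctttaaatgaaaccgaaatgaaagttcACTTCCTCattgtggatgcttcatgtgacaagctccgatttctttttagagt
Ctsl held CACGTG 1 time and Ctsc GAGGAAGT 1 time. The promoter of Ctsa from its first start and those of Ctsk and Ctsz held none of these letters. TGAGTCA was in none of the 8 windows. Ctsk and Ctss are neighbours on chromosome 3, at chr3:95499256-95509362 and chr3:95526786-95556403 on the plus strand, 17423 bases apart with 0 annotated genes between them.

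Expression was deposited as TPM, a unit of transcript abundance that is corrected for transcript length and scaled to the same sum in each library, so that levels of different genes can be set side by side. TPM keep no read counts, so sequencing depth is unknown here and no counting interval can be given. Differences are given as ratios of mean TPM and as log2 fold changes of TPM + 1 with their standard errors (SE), a scale that understates the change of low genes. They come from limma, fitted across all genes of a table that reached 1 TPM in enough libraries to fill the smaller group, and a gene is said to be called at a Benjamini-Hochberg adjusted p under 0.05 over all of them. The libraries kept no strand, so reads of Ctsa cannot be told from those of Neurl2 and Pltp where they overlap it on the other strand, and the same holds for Ctsb with Fdft1, Ctsc with Gm26522, Ctsl with Gm47123 and Ctsz with Nelfcd. Sftpc alone held 14.2% to 15.5% of all TPM in the sorted control cells, and 10 AT2 markers summed to 196860 to 211499 TPM there. A pair of libraries stood apart. The library of 6-day knockout lung 3 held 8.45% of its TPM in 4 haemoglobin genes, against 0.876% to 4.52% in the other 5 lungs of that table. Control organoid 2 held 0.694% of its TPM in Sftpc, against 2.82% in control organoid 1, and 1866 TPM in 4 basal cell genes against 921.

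In control AT2 cells Ctsh was the highest cathepsin gene and Ctss, Ctsk and Ctse were near the bottom, whereas in control lungs Ctsd and Ctss led. The comparison of control AT2 cells with control whole lung at 6 days was not used to choose the genes. Sample kind and sequencing table cannot be told apart in it, and TPM of a sorted cell depend on how much its highest genes take. The library values of control AT2 cells were 1535, 1663 and 1781 TPM for Ctsh, which encodes an aminopeptidase, and those of control lungs were 379, 418 and 363 TPM. For Ctsc, the dipeptidyl peptidase that activates granule proteases, they were 471, 467 and 545 TPM in AT2 cells and 119.6, 133 and 122 TPM in lungs. For Ctsz, a carboxypeptidase also called cathepsin X, they were 353, 334 and 401 TPM in AT2 cells and 222, 319 and 195 TPM in lungs. The AT2 cell values lay above all lung values in each of these genes. By limma, with SE and adjusted p, AT2 cells were higher by 2.10 ± 0.08 in Ctsh (1.47e-07), by 1.97 ± 0.08 in Ctsc (1.75e-07) and by 0.59 ± 0.17 in Ctsz (0.0129). The call of Ctsz was lost without 6-day control lung 1 (limma adjusted p = 0.0516, with 0.000256 to 0.0516 over all alternatives).

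Of the other members, 5 were lower in control AT2 cells than in control lung. Ctss, the elastin-digesting and antigen-processing protease of macrophages, had 11.9, 6.24 and 8.62 TPM in AT2 cells and 387, 499 and 374 TPM in lungs, a 47.0-fold higher mean in lung. Ctsk, the collagen-digesting protease of osteoclasts, had 2.20, 1.31 and 2.22 TPM in AT2 cells and 31.4, 51.2 and 27.5 TPM in lungs, 19.2-fold higher in lung. These were the members with the widest gap between AT2 cells and lung among the 9 tested, with log2 differences of -5.43 ± 0.20 (SE, limma adjusted p = 1.07e-07) and -3.66 ± 0.24 (adjusted p = 1.99e-06). Ctsd, the main aspartic protease of lysosomes, had 240.1, 236 and 245 TPM in AT2 cells and 677, 821 and 659 TPM in lungs. It differed by -1.57 ± 0.09 (SE, limma adjusted p = 1.01e-06), Ctsl, an endopeptidase, by -1.16 ± 0.07 (adjusted p = 1.84e-06) and Ctsa, a carboxypeptidase that also protects lysosomal neuraminidase and galactosidase, by -1.05 ± 0.08 (adjusted p = 7.67e-06). Ctsb, an endopeptidase and dipeptidase, had 243, 237 and 271 TPM in AT2 cells and 261, 362 and 253 TPM in lungs and was not called (-0.20 ± 0.14), and its sign turned to 0.067 with median-ratio scaling. Ctse, an aspartic protease known from stomach and immune cells, was under 1 TPM in too many libraries to be tested, at 0.131, 0 and 0 TPM in AT2 cells and 1.203, 0.475 and 1.03 TPM in lungs. Of the 9 members tested, 3 were higher and 5 lower, where 24.4% of all genes tested were called higher and 49.5% lower. The median over all genes of this comparison was -0.26 and moved to 0.22 with quantile normalization, so differences of that size follow the scaling.

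**Figure D1:**
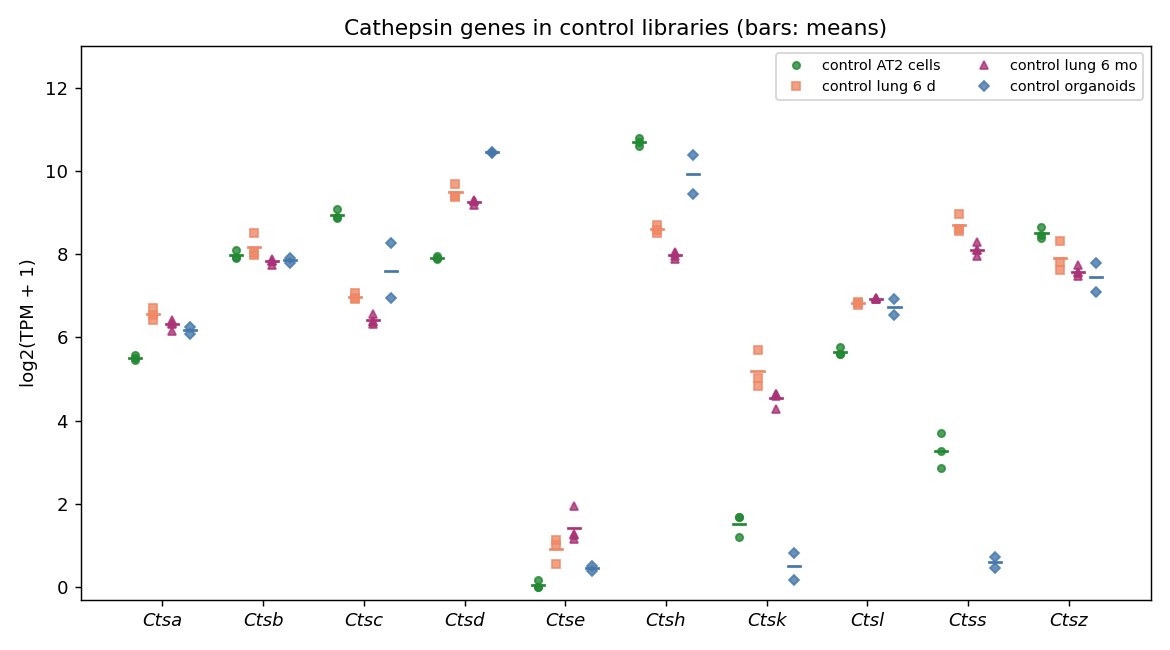
Level of each cathepsin gene, as log2(TPM + 1), in the control libraries of sorted AT2 cells, whole lung at 6 days, whole lung at 6 months and organoids; points are libraries and bars their means. Ctss and Ctsk sit far lower in AT2 cells and organoids than in lungs, Ctsh and Ctsc are highest in AT2 cells, and Ctsd is highest in organoids.

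Control organoids and control AT2 cells were compared in the same way, and again table and sample kind cannot be told apart. Among the 9 members tested, Ctsd had the largest rise over AT2 cells. It had 1388 and 1394 TPM in the 2 control organoids, 5.78 times the mean of AT2 cells. It was higher by 2.53 ± 0.09 (SE, limma adjusted p = 2.81e-05), Ctsl by 1.08 ± 0.14 (adjusted p = 0.0013) and Ctsa by 0.65 ± 0.10 (adjusted p = 0.0023). Ctss was near 0, at 0.650 and 0.387 TPM, and lower than in AT2 cells by -2.67 ± 0.27 (adjusted p = 0.000464). Ctsz was lower by -1.06 ± 0.22 (adjusted p = 0.00664). Ctsc, Ctsk and Ctsh were called lower too (-1.35 ± 0.36, -1.02 ± 0.28 and -0.77 ± 0.27, limma adjusted p = 0.0181, 0.0185 and 0.0467), but each call depended on the libraries used. Ctsc lost it without AT2 control 2 or 3 (limma adjusted p = 0.0528 and 0.0653, with 0.00112 to 0.0653 over all alternatives), Ctsk without organoid control 2 or AT2 control 1 or 3 (0.0776, 0.0572 and 0.0612, with 0.00765 to 0.0776), and Ctsh without organoid control 2 or any 1 AT2 control (0.06998, 0.0894, 0.119 and 0.133, with 0.00229 to 0.133). The call of Ctsh was also lost with no filter, with no variance trend and with the replicate block (limma adjusted p = 0.0907, 0.0554 and 0.102). The 2 control organoids differed widely from each other in Ctsc, at 304 and 122 TPM, and in Ctsh, at 1343 and 699 TPM. In all, 3 of 9 members tested were higher and 5 lower, where 39.6% of all genes tested were called higher and 24.3% lower. Ctsb was not called (-0.12 ± 0.11), but with median-ratio scaling it was called lower (-0.33, limma adjusted p = 0.0428). Ctse was not tested, at 0.131, 0 and 0 TPM in AT2 cells and 0.434 and 0.314 TPM in organoids. The median over all genes was 0.21.

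Levels in the 4 control kinds did not follow a single order. By mean level, Ctsk, Ctss and Ctsa were highest in 6-day lungs, Ctse and Ctsl in 6-month lungs, Ctsc, Ctsh and Ctsz in AT2 cells and Ctsd in organoids. For Ctsb the 4 means ran from 226 ± 9.20 TPM (SD, n = 4) in 6-month lungs to 292 ± 60.8 TPM (SD, n = 3) in 6-day lungs, and the ranges of neighbours in this order overlapped throughout. The ranges of neighbouring kinds did not overlap at any step for Ctsd, Ctse, Ctsh, Ctsk and Ctss.

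In sorted AT2 cells of knockouts the largest relative differences among the members tested were in Ctsk and Ctss, both low in control AT2 cells. Ctsk was 2.20, 1.31 and 2.22 TPM in the 3 control libraries and 33.2, 10.8 and 20.4 TPM in the 3 knockout libraries. Ctss was 11.9, 6.24 and 8.62 TPM in controls and 25.9, 22.0 and 34.0 TPM in knockouts. In both genes all knockout libraries lay above all control libraries, with ratios of mean TPM of 11.2 and 3.06 and log2 differences of 2.83 ± 0.35 and 1.53 ± 0.22 (SE). Ctsb had 243, 237 and 271 TPM in controls and 336, 313 and 362 TPM in knockouts, without overlap, a log2 difference of 0.43 ± 0.09. These 3 of the 9 members tested were called higher and 0 lower, beside 6.62% and 1.22% of all genes tested, and nothing is read from this share because the contrast chose the genes. The call of Ctsb was lost in 4 of 7 other processing settings and without control 1, 2 or 3 or knockout 1 or 3, at differences of 0.34 to 0.49.

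The remaining members differed less in AT2 cells and were not called. Ctsd had 240.1, 236 and 245 TPM in control and 429, 307 and 310.02 TPM in knockout AT2 cells (0.52 ± 0.13, SE), with knockout 1 highest, and it was called without knockout 1 or without knockout 2, at 0.36 and 0.60. Ctsz had 353, 334 and 401 TPM and 585, 435 and 471 TPM (0.45 ± 0.13). Ctsc had 471, 467 and 545 TPM and 606, 596 and 606 TPM (0.29 ± 0.10). None of these 3 genes overlapped between genotypes. Ctsa had 46.3, 44.6 and 42.9 TPM in controls and 72.7, 50.2 and 50.1 TPM in knockouts (0.34 ± 0.14), also without overlap. In Ctsh, at 1535, 1663 and 1781 TPM in controls and 1672, 1879 and 2302 TPM in knockouts (0.22 ± 0.15), and in Ctsl, at 47.3, 53.8 and 47.2 TPM and 72.6, 46.1 and 40.9 TPM (0.06 ± 0.19), the genotypes overlapped, and the sign of Ctsl turned with median-ratio scaling (-0.02), quantile normalization (-0.02) and without knockout 1 (-0.18). Ctse was listed at 0.131, 0 and 0 TPM in controls and at 0.926, 0.312 and 0.727 TPM in knockouts and was not tested. All knockouts lay above all controls in 7 of the 9 members tested and below in 0, beside 25.4% and 8.31% of all genes tested. The median over the 9 was 0.43 and over all genes 0.08.

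Some marker lists of other cells were also higher in the sorted knockout libraries. The summed level of 10 alveolar macrophage markers was 35.1 to 68.3 TPM in controls and 143 to 263 TPM in knockouts, with 4 of 7 markers tested called higher, and that of 5 pan-leukocyte markers was 13.5 to 33.6 TPM and 49.99 to 88.9 TPM, with 2 of 5 called higher. Of the monocyte and interstitial macrophage markers 0 of 6 tested were called by limma (3 higher and 0 lower at an unadjusted p under 0.05). Of the 6 lipid-associated macrophage markers 4 were called higher, while their summed level overlapped at 636 to 710 TPM in controls and 616 to 724 TPM in knockouts. The 10 AT2 markers summed to 127184 to 184451 TPM in knockouts, below all controls, with 0 called. Most of this sum was Sftpc, which held 14.2% to 15.5% of all TPM in controls and 8.53% to 12.9% in knockouts. Siglecf, a defining marker of alveolar macrophages, was at 0.06 to 1.01 TPM in all 6 sorted libraries whereas Marco, another of them, rose from 0.248 to 0.573 TPM in controls to 5.71 to 16.4 TPM in knockouts. Across knockouts 1, 2 and 3 Ctsk was 33.2, 10.8 and 20.4 TPM and Ctss 25.9, 22.0 and 34.0 TPM. In the same order the alveolar macrophage markers summed to 263, 143 and 220 TPM and the pan-leukocyte markers to 55.4, 49.99 and 88.9 TPM. The monocyte and interstitial macrophage markers summed to 95.8, 107.5 and 117.7 TPM. The order of the libraries thus differed between lists, and nothing is read from it. The part of such cells in the Ctsk and Ctss values was not tested.

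In whole lung after 6 days every cathepsin gene was higher in all 3 knockouts than in all 3 controls. Ctsk was 31.4, 51.2 and 27.5 TPM in controls and 418, 403 and 879.5 TPM in knockouts, a ratio of means of 15.5. Ctsd was 677, 821 and 659 TPM in controls and 2953, 2460.1 and 3535 TPM in knockouts, a ratio of 4.15. Ctss was 387, 499 and 374 TPM in controls and 1229, 924 and 1164 TPM in knockouts, a ratio of 2.63. Knockout 3, the library with much haemoglobin, was the highest of the table in Ctsk, Ctsd, Ctsh and Ctsl and not in Ctss. The log2 differences were 3.87 ± 0.34 for Ctsk, 2.04 ± 0.16 for Ctsd and 1.40 ± 0.17 for Ctss (SE), and without knockout 3 they were 3.50, 1.91 and 1.35.

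Among the other cysteine proteases, Ctsz was 222, 319 and 195 TPM in control and 645, 519 and 495 TPM in knockout lungs at 6 days (1.19 ± 0.20, SE). Ctsb was 261, 362 and 253 TPM and 658, 589 and 604 TPM (1.10 ± 0.16). In both genes control 2 was the highest control and still below every knockout. Ctsc was 119.6, 133 and 122 TPM and 201, 202 and 185 TPM (0.65 ± 0.12). Ctsl was 108, 114 and 113 TPM and 160.1, 150.5 and 185 TPM (0.56 ± 0.13). Ctsh, the cathepsin that was highest in AT2 cells, was 379, 418 and 363 TPM and 508, 623 and 877 TPM (0.75 ± 0.20), with the knockouts far apart from each other. It was the only member of the 10 not called, and it was called without knockout 1 or without knockout 3, at 0.93 and 0.54. The serine carboxypeptidase gene Ctsa was 92.6, 103 and 85.0 TPM in controls and 182, 159.7 and 148 TPM in knockouts (0.79 ± 0.14). Ctse stayed low, at 1.203, 0.475 and 1.03 TPM in controls and 3.81, 4.87 and 3.06 TPM in knockouts (1.37 ± 0.23).

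In 6-day lung 9 of 10 members were called higher and 0 lower, beside 3.16% and 3.79% of all genes tested, and the genotypes were separate in 10 of 10, upward, beside 12.5% of genes with all knockouts above and 23.7% with all below. Without control 1 or without control 3 the count of calls was 3, and without knockout 2 it was 4, while the differences kept their sign. Without knockout 3 it was 10, at 0.47 (Ctsl) to 3.50 (Ctsk). The call of Ctsl was the weakest of the 9. It was lost with a filter at 5 TPM, with median-ratio scaling and with no variance trend. It was also lost with the replicate block and without any 1 library except knockout 3. The call of Ctsc was lost with the replicate block too. The median over the members was 1.14 and over all genes -0.14, a shift that median-ratio scaling removed. The summed pan-leukocyte markers were 1094 to 1409 TPM in controls and 1995 to 2218 TPM in knockouts (2 of 5 called higher), the 10 alveolar macrophage markers 1321 to 1512 TPM and 3402 to 12599 TPM (3 called higher and 3 lower), and 6 lipid-associated macrophage markers 1066 to 1270 TPM and 3500 to 8217 TPM (5 called higher). The 10 AT2 markers summed to 38163 to 44593 TPM in controls and 19077 to 22804 TPM in knockouts (1 called higher and 2 lower). Sftpc, 1 of the markers called lower, weighs heavily in this sum. It held 2.88% to 3.37% of all TPM in controls and 1.02% to 1.32% in knockouts. In whole lung, a change in the number of cells of a type and a change in RNA per cell cannot be told apart, and the part of these cells in the cathepsin values was not tested.

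At 6 months the knockout lungs held the largest cathepsin values of the series for Ctsd, Ctss, Ctsb, Ctsz, Ctsl and Ctsa. Ctsd, already the leading cathepsin gene in control lung, was 624, 579, 618 and 629 TPM in the 4 controls and 6382, 6198, 5242 and 5266 TPM in the 4 knockouts. Ctss was 272, 248, 271 and 311 TPM in controls and 1986, 1924, 1648 and 1879 TPM in knockouts. Ctsk was 23.8, 18.3, 24.03 and 23.3 TPM in controls and 719.9, 604, 456 and 585 TPM in knockouts. The lowest knockout lay far above the highest control in each of these 3 genes, with ratios of means of 9.42 for Ctsd, 6.75 for Ctss and 26.5 for Ctsk and log2 differences of 3.23 ± 0.07, 2.75 ± 0.08 and 4.65 ± 0.13 (SE).

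Ctsb was 226, 213, 228 and 235 TPM in control lungs at 6 months and 1220.4, 965, 843 and 986 TPM in knockouts (2.14 ± 0.09, SE). Ctsz was 188, 177, 186 and 213 TPM and 855, 821, 743 and 778 TPM (2.06 ± 0.07). Ctsl was 122, 119.7, 119.9 and 123 TPM and 456, 379.8, 292 and 372 TPM (1.61 ± 0.11). In TPM the 4 knockouts spread more widely than the 4 controls in all 3 of these genes, and the groups did not overlap. Relative to its mean Ctsz did not spread more widely in knockouts (SD 48.9 at a mean of 799 TPM) than in controls (SD 15.4 at 191 TPM). Ctsa was 79.1, 70.5, 79.8 and 84.6 TPM in controls and 255, 240.2, 230.2 and 219 TPM in knockouts (1.58 ± 0.07). The differences were smaller in Ctsh, at 236, 262, 245 and 260.5 TPM and 440.2, 435, 455 and 423 TPM (0.80 ± 0.05), and in Ctsc, at 79.2, 83.2, 82.1 and 93.8 TPM and 158, 153, 147 and 139.8 TPM (0.82 ± 0.06). Ctse was the exception, with 1.25, 1.44, 1.38 and 2.88 TPM in controls and 1.32, 1.41, 1.49 and 2.10 TPM in knockouts, overlapping (-0.06 ± 0.19), and with 0.12 without control 4. The 9 others were called higher and 0 lower, beside 15.9% and 13.9% of all genes tested, with all 8 libraries and without any 1 of them. Of the 10 members, 9 had all knockouts above all controls, beside 16.4% of genes above and 14.2% below, and the median was 1.83 against -0.005 over all genes. The pan-leukocyte markers summed to 732 to 880 TPM in controls and 2308 to 2569 TPM in knockouts (4 of 5 called higher), the alveolar macrophage markers to 569 to 815 TPM and 3768 to 7388 TPM (6 called higher and 3 lower of 10), and the lipid-associated macrophage markers to 956 to 1029 TPM and 4013 to 6194 TPM (6 of 6 called higher). The monocyte and interstitial macrophage markers summed to 430 to 614 TPM in controls and 1087 to 1179 TPM in knockouts (5 of 8 called higher and 0 lower). The 10 AT2 markers summed to 22403 to 24140 TPM and 25693 to 31886 TPM (6 called higher and 0 lower). The part of these cells in the cathepsin values at 6 months was not tested.

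**Figure D2:**
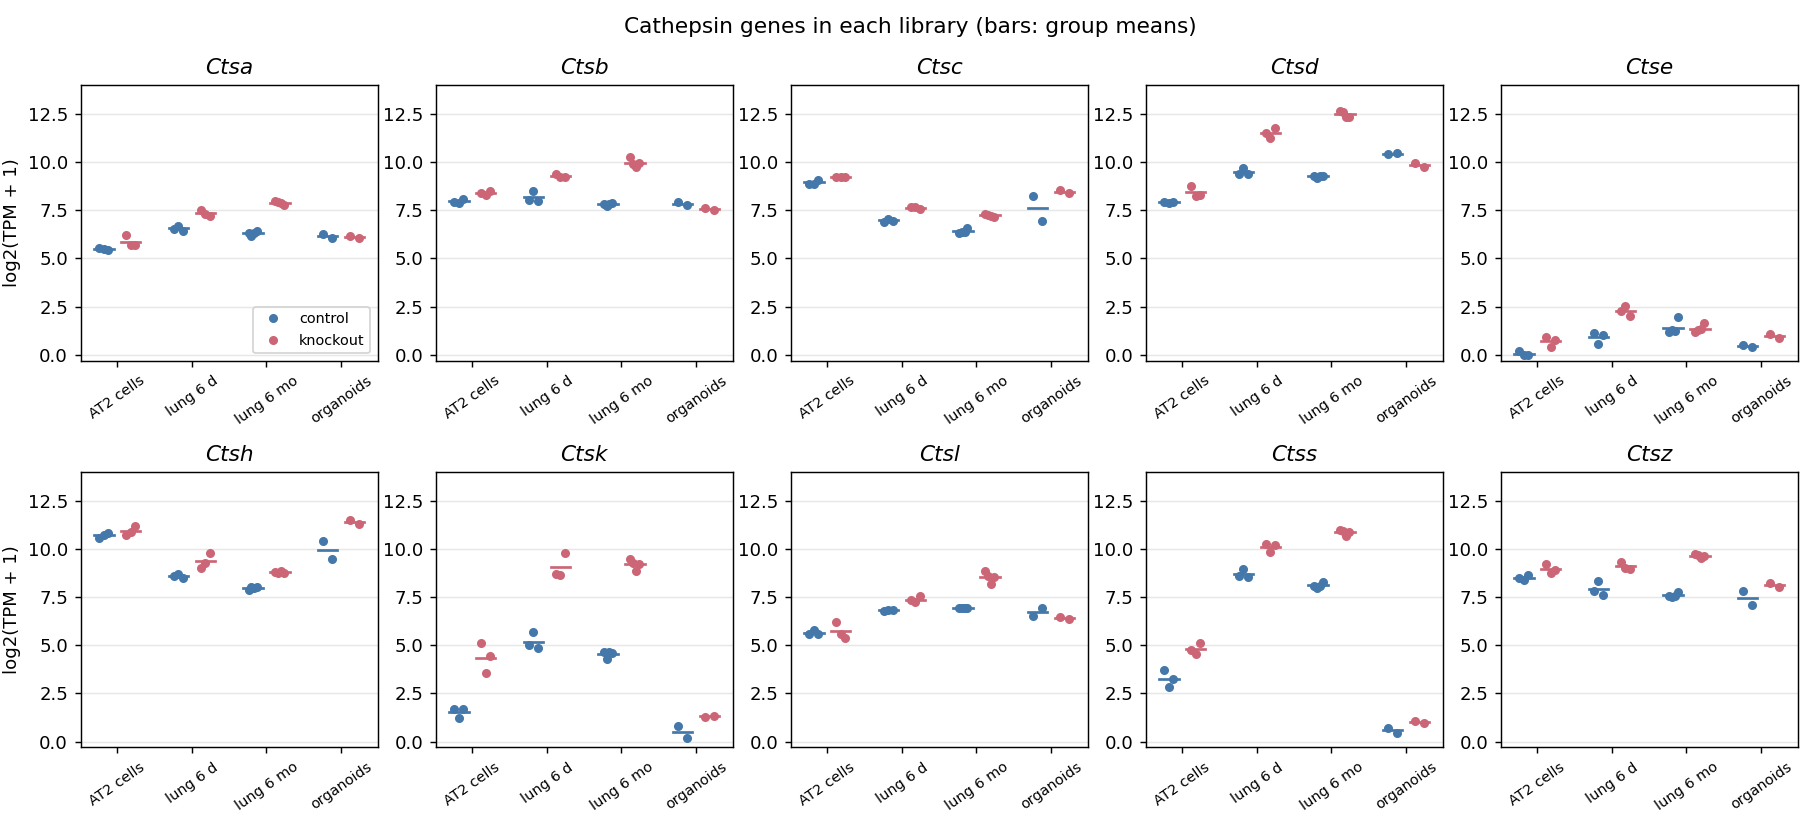
Each cathepsin gene in each of the 24 libraries, as log2(TPM + 1), with controls in blue and knockouts in red; bars are group means. In both lung tables the knockouts lie above the controls except for Ctse at 6 months, and in organoids Ctsb, Ctsd and Ctsl lie lower in knockouts.

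In organoids, which hold cultured epithelial cells, the members did not share a direction. Ctsh was 1343 and 699 TPM in the 2 controls and 2893 and 2514 TPM in the 2 knockouts (1.48 ± 0.35, SE). Ctsc was 304 and 122 TPM and 368 and 339.5 TPM (0.87 ± 0.46). Ctsz was 221 and 135 TPM and 301 and 259.7 TPM (0.69 ± 0.27). In each of these, both knockouts lay above both controls and control 2, the library poor in Sftpc, was the lowest. Ctsd was 1388 and 1394 TPM in controls and 973 and 849.6 TPM in knockouts (-0.61 ± 0.13), Ctsb was 239.9 and 219.98 TPM and 195 and 179.96 TPM (-0.29 ± 0.11), and Ctsl was 92.0 and 121 TPM and 85.8 and 81.0 TPM (-0.33 ± 0.16). In these 3 genes both knockouts lay below both controls. Ctsa overlapped, at 75.2 and 66.6 TPM in controls and 69.6 and 65.7 TPM in knockouts (-0.07 ± 0.12, and 0.02 without control 1).

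Ctsk, Ctss and Ctse were lowest of the members in organoids of both genotypes. Ctsk was 0.773 and 0.131 TPM in control and 1.46 and 1.54 TPM in knockout organoids (0.82 ± 0.29, SE), Ctss 0.650 and 0.387 TPM and 1.07 and 0.925 TPM, and Ctse 0.434 and 0.314 TPM and 1.14 and 0.806 TPM, and the last 2 genes were not tested. Of 8 members tested with limma, 0 were called higher and 0 lower, beside 0.218% and 0.387% of all genes tested. At an unadjusted p under 0.05 there were 2 higher (Ctsh and Ctsk) and 1 lower (Ctsd). Ctsk reached 1 TPM only in the knockouts and entered the test only through them, so nothing is read from its p-value. With 2 against 2 libraries the values depended on single libraries. Leaving out a library leaves 1 in a group, so only differences are given for those fits. Without control 1 the difference was 1.95 in Ctsh, 1.53 in Ctsc, 1.05 in Ctsz, 1.14 in Ctsk, -0.62 in Ctsd and -0.53 in Ctsl. Without control 2 the difference was 1.01 in Ctsh, 0.21 in Ctsc, 0.33 in Ctsz, 0.49 in Ctsk, -0.61 in Ctsd, -0.36 in Ctsb and -0.14 in Ctsl. All knockouts lay above all controls in 4 members, 1 of them Ctsk, and below in 3, where 39.6% of all genes lay above and 32.0% below. The median over the 8 was 0.31 and over all genes 0.06. The 5 pan-leukocyte markers summed to 0.840 and 0.954 TPM in controls and 3.34 and 3.84 TPM in knockouts, with Tyrobp at 0 in both controls and Ptprc at 0.06 to 0.24 TPM in all 4 libraries. The 10 AT2 markers summed to 48467 and 14693 TPM in controls 1 and 2 and to 75336 to 82826 TPM in knockouts, and 4 basal cell markers to 921 and 1866 TPM against 68.6 to 71.8 TPM. The part of this makeup in the cathepsin values was not tested.

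**Figure D3:**
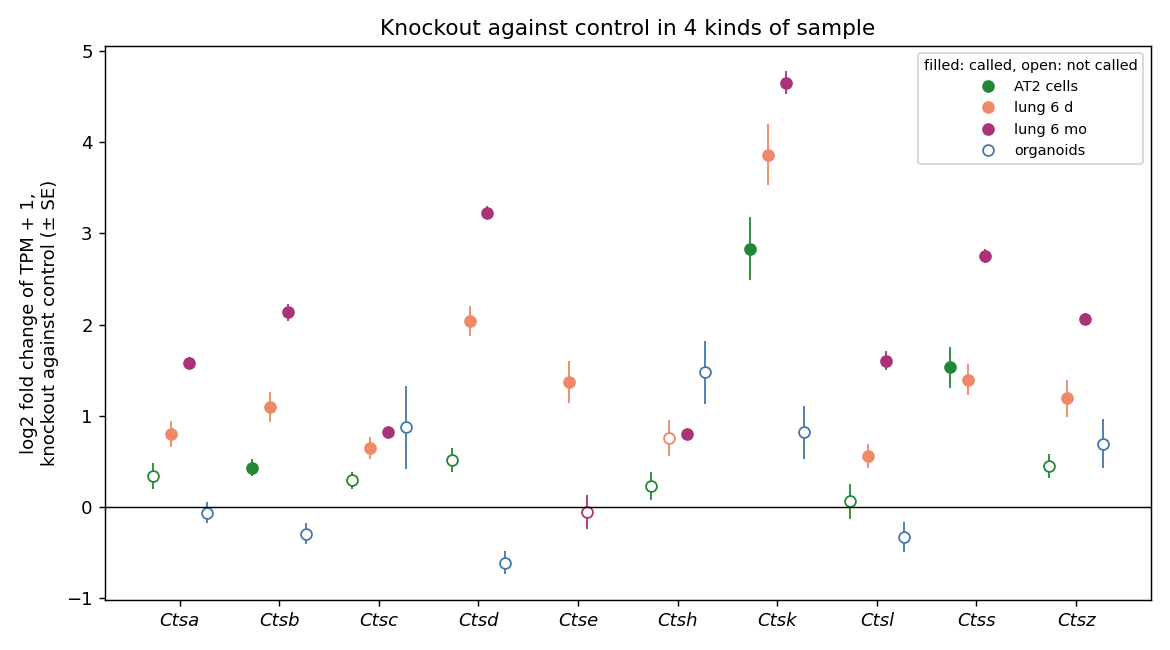
Log2 fold change of TPM + 1, knockout against control, of each cathepsin gene in sorted AT2 cells, whole lung at 6 days, whole lung at 6 months and organoids, with bars of 1 SE; filled points were called and open points not. Ctse in AT2 cells and organoids and Ctss in organoids were not tested and have no point. The largest value is that of Ctsk at 6 months, 4.65, and the lowest that of Ctsd in organoids, -0.61.

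The 10 genes together took a larger part of the messenger RNA of knockout lungs. Their summed level was 2431 ± 341 TPM (SD, n = 3) in control and 7023 ± 1022 TPM (n = 3) in knockout lungs at 6 days, 2.89 times as much, and 1864 ± 84.3 TPM and 11225 ± 1080 TPM (n = 4 each) at 6 months, 6.02 times as much. In AT2 cells the sums were 3113 ± 206 TPM and 3897 ± 274 TPM (n = 3 each), and in organoids 3212 ± 643 TPM and 4591 ± 421 TPM (n = 2 each). In no kind did the sums of the 2 genotypes overlap. The makeup of the sum differed as well. Ctsd held 32.9% ± 0.814 (SD, n = 4) of the summed level in control lungs at 6 months and 51.4% ± 1.48 (n = 4) in knockouts, and 29.6% ± 0.488 and 42.3% ± 1.51 (n = 3 each) at 6 days. Ctsh held 53.3% ± 1.31 in control AT2 cells and 49.9% ± 5.75 in knockout AT2 cells (n = 3 each), with overlapping ranges. In organoids Ctsd held 44.2% ± 8.97 and Ctsh 31.0% ± 7.98 in controls, against 19.8% ± 0.0750 and 58.9% ± 0.442 in knockouts (n = 2 each). Ctsd was thus the leading cathepsin gene in control organoids and Ctsh in knockout organoids. Whether the knockout difference of any member differed between kinds of sample was not tested.

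**Figure D4:**
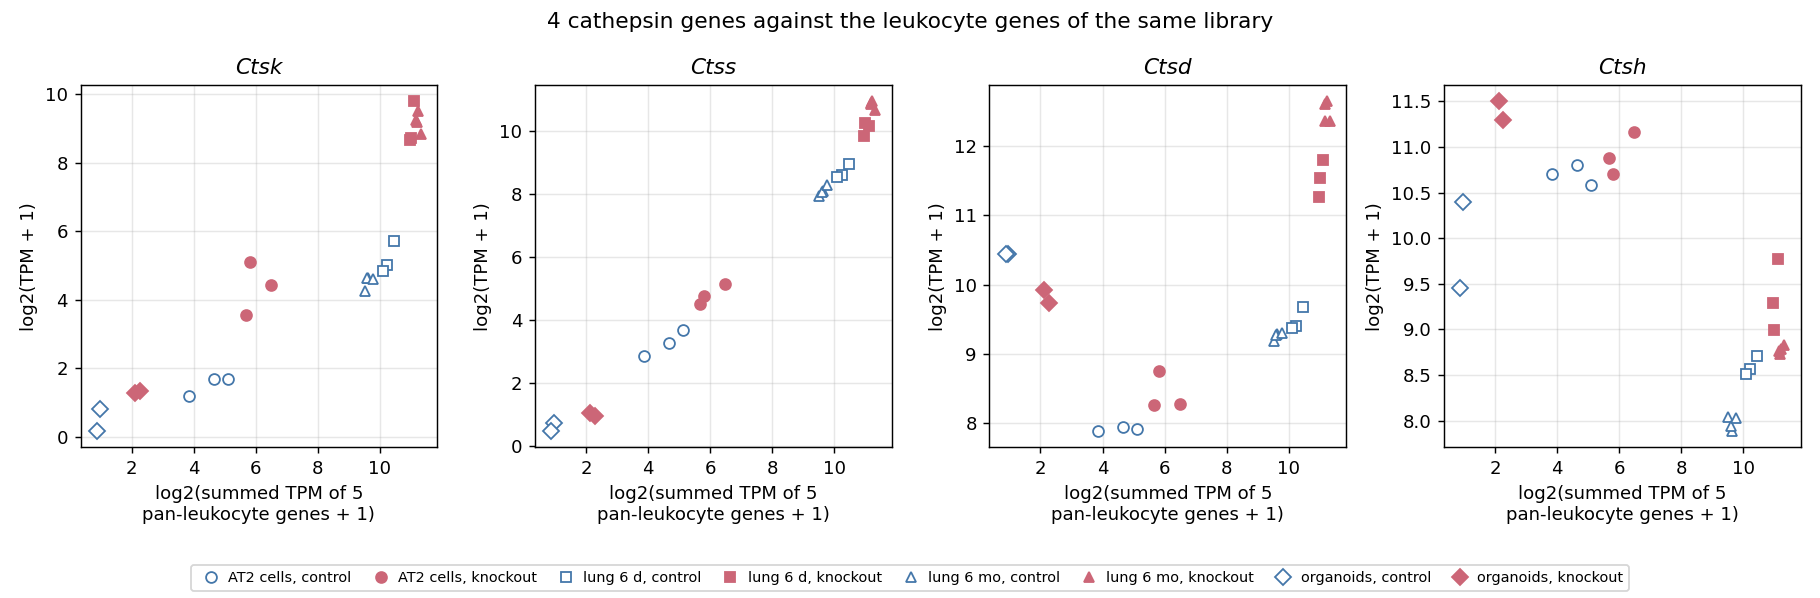
Ctsk, Ctss, Ctsd and Ctsh (log2(TPM + 1), vertical axis) against the summed level of 5 pan-leukocyte genes in the same library (log2(TPM + 1), horizontal axis), with 1 point for each of the 24 libraries. Ctss rises with the leukocyte genes over the kinds of sample, and Ctss, Ctsk and Ctsd all lie higher in knockout lungs than in control lungs. Ctsh is highest in AT2 cells and knockout organoids, where leukocyte genes are low.

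Over the 24 libraries, with log2(TPM + 1) centred on the mean of each table, the 45 pairs of members had Pearson correlations of 0.15 to 0.98 with a median of 0.82, given as a description because the libraries of a table share their genotypes. The closest pair was Ctsb and Ctsd (0.98), and Ctsk was closest to Ctss (0.97). Ctse stood apart, with 0.15 to 0.53. Ctsh was closest to Ctsc (0.90) and least like Ctsl (0.42). Centred on each genotype of each table, which leaves only the spread between replicates, the pairs ran from -0.32 to 0.80 with a median of 0.29, Ctsd with Ctsk (0.80) and Ctsd with Ctsl (0.73) remaining among the closer pairs.

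**Figure D5:**
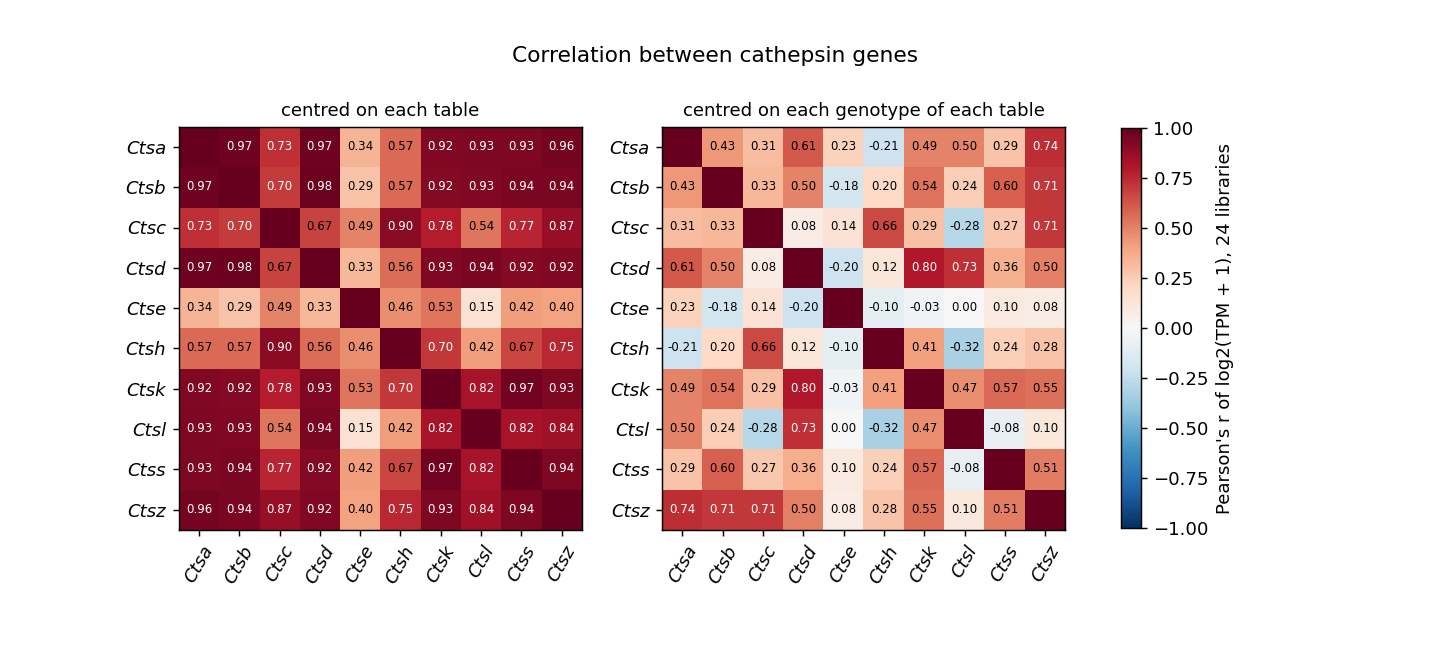
Pearson correlation between each pair of cathepsin genes over 24 libraries, left with values centred on each table and right with values centred on each genotype of each table. On the left the pairs reach 0.98 and Ctse is the weakest row; on the right the highest pair is at 0.80.

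Among 11368 genes with a mean of at least 5 TPM, the gene most like each member over the same 24 centred libraries was named. It was Gla, which encodes the lysosomal alpha-galactosidase, for Ctsd (Pearson r = 0.99) and for Ctsb (0.99). It was Itgb2, a leukocyte integrin chain, for Ctss (0.99), followed by Lilrb4a (0.98), and Rnh1 for Ctsk (0.98), followed by Clec4n (0.98) and Lilr4b (0.97). It was Lgmn for Ctsz (0.97), Atp6v1c1, a subunit of the proton pump that acidifies lysosomes, for Ctsl (0.97), and Lhfpl2 for Ctsa (0.98). The genes most like Ctsc were Cndp2 and Cyba (0.95 each) and Sftpd (0.94), and the one most like Ctsh was Snx1 (0.95). Ctse had its highest value with Bad (0.81). Centred on genotype and table, Gla came first again for Ctsd (0.86) and Itgb2 for Ctss (0.83), and other genes came first for the other 8 members.

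The rest of the cathepsin system was described from lists of other cathepsins, inhibitors, sorting and processing proteins, transcription factors and substrates, with calls from the same limma fits. Of 13 other cathepsin genes, 9 (the placental group from Cts3 to Ctsr) were listed at 0 TPM in all 24 libraries and Ctsg was at most 0.300 TPM. Ctsf, a cysteine protease, was 4.66 ± 0.646 TPM in control and 2.12 ± 0.833 TPM in knockout AT2 cells (SD, n = 3 each) and fell there (-0.89 ± 0.20, SE, adjusted p = 0.0405), a call lost with no filter and without AT2 control 1, 2 or 3 or knockout 1 or 3, and with a filter at 5 TPM it was not tested. At 6 months Ctsf rose slightly (0.23 ± 0.07, adjusted p = 0.0209), a call lost with median-ratio scaling, with quantile normalization and without control 3 or knockout 2 or 4. Ctsw, a gene of cytotoxic lymphocytes, fell at 6 months (-0.48 ± 0.14, adjusted p = 0.0214), a call lost without control 2 or 4 or knockout 2. Neither Ctsf, Ctso nor Ctsw was called at 6 days (limma, 0 of 3, with 0 higher and 1 lower at an unadjusted p under 0.05), and 0 of 2 were called in organoids (0 higher and 1 lower unadjusted).

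Of the inhibitors, Cstb, which encodes stefin B, an inhibitor of cysteine cathepsins, rose in both lung tables. It was 187 ± 57.4 TPM in control and 574 ± 169 TPM in knockout lungs at 6 days (SD, n = 3 each; 1.62 ± 0.26, SE, limma adjusted p = 0.0133) and 146 ± 10.6 TPM and 512 ± 49.0 TPM at 6 months (n = 4 each; 1.80 ± 0.08, adjusted p = 3.02e-08). The 6-day call was lost without control 1 or 3. At 6 months 8 of 13 inhibitors tested rose and 1 fell, beside 15.9% and 13.9% of all genes tested, among the former Serpinb6a (0.57 ± 0.06), Kng2, a kininogen (1.61 ± 0.17), and Cst3, which encodes the secreted cystatin C (0.47 ± 0.06), with limma adjusted p of 1.66e-05, 3.34e-05 and 8.94e-05. Ctla2a, an inhibitor of cathepsin L, was the gene that fell (-0.18 ± 0.06, limma adjusted p = 0.0412). Its call was lost with no filter, with median-ratio scaling and with no variance trend. It was also lost in at least 1 of the fits that left out a library. At 6 days 1 of 13 rose, beside 3.16% of all genes, and 3 with median-ratio scaling. In AT2 cells 5 of 9 tested rose and 0 fell, beside 6.62% and 1.22% of all genes, led by Kng2 (1.43 ± 0.30), Cstb (0.69 ± 0.15), Serpinb6b (0.33 ± 0.08) and Slpi (0.94 ± 0.22), with limma adjusted p of 0.0331, 0.0371, 0.0406 and 0.0408. All 4 lost their call with no filter and without AT2 control 1 or 2 or knockout 1 or 3. The count of inhibitors called there ran from 0 (no filter, quantile normalization) to 5 over the other settings and from 0 to 3 without 1 library. In organoids 0 of 9 were called by limma, with 1 higher and 2 lower at an unadjusted p under 0.05.

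All 16 genes of sorting and processing passed the filter in every table. At 6 months 13 rose and 0 fell, beside 15.9% and 13.9% of all genes tested. Psap, whose saposin precursor is cut by cathepsin D, was 892 ± 58.6 TPM in control and 3574 ± 169 TPM in knockout lungs (SD, n = 4 each; 2.00 ± 0.06, SE, limma adjusted p = 1.81e-09). Lgmn, the asparaginyl protease that trims several cysteine cathepsins, was 132 ± 6.72 TPM and 395 ± 15.9 TPM (1.57 ± 0.05, adjusted p = 4.37e-09). Neu1, the neuraminidase held in complex with cathepsin A (0.91 ± 0.07, adjusted p = 3.30e-06), and Gnptab (0.87 ± 0.09, adjusted p = 2.53e-05) followed. At 6 days, where 3.16% of all genes were called higher and 3.79% lower, 3 rose and 0 fell, Lgmn (1.26 ± 0.15), Psap (0.88 ± 0.15) and Neu1 (0.64 ± 0.15), with limma adjusted p of 0.00595, 0.0153 and 0.0481, and the count ran from 1 to 5 without 1 library. Psap lost its call without control 1 or 3, and Neu1 lost it without any 1 library except knockout 3, with no filter, with a filter at 5 TPM, with a pseudocount of 0.1 and with the replicate block. In AT2 cells the only call of the 16, a share near the 6.62% of all genes called higher, was Gnptab, the gene with the let-7 8mer shown above, at 81.8 ± 8.15 TPM in control and 133 ± 18.2 TPM in knockout cells (SD, n = 3 each; 0.69 ± 0.12, adjusted p = 0.0169), a call lost without AT2 control 1 or 2. In organoids 0 of 16 were called, with 1 higher and 2 lower at an unadjusted p under 0.05.

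Of the 6 transcription factors, Spi1, which encodes PU.1, rose at 6 days (0.83 ± 0.14, SE, limma adjusted p = 0.0161), at 6 months (1.51 ± 0.07, adjusted p = 8.43e-08) and in AT2 cells (1.21 ± 0.26, adjusted p = 0.0351), where it was 2.25 ± 0.582 TPM in controls and 6.77 ± 2.86 TPM in knockouts (SD, n = 3 each) and lost its call with no filter, with both other scalings and without control 1, 2 or 3 or knockout 2 or 3. With a filter at 5 TPM it was not tested there, and its 6-day call was lost without control 1 or 3 or knockout 2. Tfec, a relative of TFEB, rose at 6 days (1.37 ± 0.31, limma adjusted p = 0.0392) and 6 months (1.82 ± 0.13, adjusted p = 2.20e-06). Mitf (0.70 ± 0.13) and Tfe3 (0.24 ± 0.07) rose at 6 months, with limma adjusted p of 0.00206 and 0.019. The 6-day call of Tfec was lost with no filter and without any 1 control, and the 6-month call of Tfe3 without control 2 or knockout 1. In all 2 of 6 rose at 6 days (0 to 2 without 1 library), 5 of 6 at 6 months (3 to 5) and 1 of 5 in AT2 cells (0 to 1), beside 3.16%, 15.9% and 6.62% of all genes tested called higher in these fits. In organoids 0 of 4 were called by limma and 0 at an unadjusted p under 0.05.

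Of 14 known substrates, those that were called in lung all fell, although at 6 days 2 were called higher and 1 lower with median-ratio scaling and 1 higher and 2 lower with quantile normalization. Gzma, a lymphocyte granzyme activated by cathepsin C, fell at 6 days (-1.03 ± 0.23, SE, limma adjusted p = 0.0398) and at 6 months (-2.07 ± 0.25, adjusted p = 7.88e-05), when Gzmb (-1.67 ± 0.19, adjusted p = 5.89e-05) and the mast cell chymase Cma1 (-1.15 ± 0.20, adjusted p = 0.00119) fell too. The 5 lymphocyte markers, 1 of them called lower at 6 days (Nkg7, -0.95 ± 0.22) and 2 at 6 months (Nkg7, -1.09 ± 0.17, and Ms4a1, -0.74 ± 0.22), summed to 79.3 to 160.2 TPM in controls and 48.4 to 89.9 TPM in knockouts at 6 days and to 195 to 255 TPM and 113 to 189.7 TPM at 6 months. Their part in the granzyme values was not tested. Sftpc, whose precursor cathepsin H helps to process, fell at 6 days (-1.49 ± 0.14, adjusted p = 0.00383). Eln, which encodes elastin, a substrate of cathepsins K, L and S, rose in sorted AT2 cells from 1.08 ± 0.555 TPM to 5.54 ± 2.07 TPM (SD, n = 3 each; 1.64 ± 0.26, limma adjusted p = 0.0144) and fell in lung at 6 months (-0.75 ± 0.16, adjusted p = 0.00494), whereas in lung at 6 days it was not called, with a value of the other sign (1.22 ± 0.34, limma adjusted p = 0.0677). At 6 days the call of Gzma was lost with no filter, with median-ratio scaling and without control 1 or 3 or knockout 2, and that of Sftpc with median-ratio scaling. That of Eln in AT2 cells was lost without control 2 or 3 or knockout 3, and it was not tested with a filter at 5 TPM. The counts were 0 higher and 2 lower of 11 at 6 days, 0 and 4 of 11 at 6 months, 1 and 0 of 7 in AT2 cells and 0 of 5 in organoids. Over all genes 3.16% were called higher and 3.79% lower at 6 days, 15.9% and 13.9% at 6 months and 6.62% and 1.22% in AT2 cells. At an unadjusted p under 0.05 there were 2 higher and 3 lower at 6 days and 2 higher and 4 lower at 6 months, and in organoids limma gave 2 higher and 0 lower.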

How the data were processed

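The authors deposited 4 tables of TPM, 1 each for sorted AT2 cells, lungs at 6 days, lungs at 6 months and organoids, with 1 column per library. Per the labels' protocols, RNA was made into poly(A)-selected TruSeq libraries without strand, and per the submitters' processing notes the genome was GRCm38. Which aligner, quantification program and gene models were used is not given in the sources used here. Read counts are not used here, which leaves sequencing depth unknown, and precision rests on the spread between libraries.

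Genes were matched by symbol, and 2 rows that repeated a symbol were left out. Each comparison was a separate fit of log2(TPM + 1) in limma (version 3.58.1, R version 4.3.3) with a variance trend. Genes entered it if the number of libraries reaching 1 TPM was at least the size of the smaller group. Tests were two-sided, with Benjamini-Hochberg adjustment over all genes tested. The code was tested on simulated data. Sorted cell libraries are pools of mice and lungs are single mice, and p-values measure only the spread between these libraries. The cathepsin genes and the pathway and marker lists were chosen with earlier results of these data known. All 10 cathepsin genes are named, and of each pathway list at most 4 called genes with the smallest adjusted p per comparison. Ctla2a is named in addition, as the only inhibitor called lower at 6 months. For likeness up to 3 genes with the highest Pearson correlation are named. Some genes and sites that these rules select are not reported here. Other settings tried were quantile normalization, median-ratio scaling, a filter at 5 TPM or none, a pseudocount of 0.1, a fit lacking the trend, a block for the replicate number, and the omission of each library in turn.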

Additional observations from a re-analysis of the deposited data

Results flagged for a closer look

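Of 20 sets of 4 lung libraries at 6 months that were examined (10 genes in each genotype), 2 had a library far from the other 3, and chance flags about 1 in 20. Ctse was 2.88 TPM in control 4 and 1.25 to 1.44 TPM in controls 1 to 3, and without control 4 its difference between genotypes was 0.12 in place of -0.06 on the log2 scale. Ctsk was 18.3 TPM in control 2 and 23.3 to 24.03 TPM in the other 3 controls.

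In 3 genes every knockout organoid lay below every control organoid, whereas every knockout lay above every control in both lung tables, and for Ctsb and Ctsd in sorted AT2 cells too. These 3 were among 8 members tested in organoids, where 32.0% of all genes tested had every knockout below every control. They were not called there. The log2 differences in organoids were -0.29 in Ctsb, -0.61 in Ctsd and -0.33 in Ctsl, against 1.10, 2.04 and 0.56 in lung at 6 days. The difference between organoids and the other kinds of sample was not tested.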

How the results depend on the processing

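Among the counts of cathepsin genes called, those of both lung tables, of AT2 cells and of the control comparisons stayed within 1.5 times their value in the 7 settings other than leaving out a library. Without 1 library the count called higher was 3 to 10 in lung at 6 days (9 with all), 9 in each case at 6 months and 2 to 4 in AT2 cells (3 with all). For knockout against control organoids (0 with all) no such counts are given, because leaving out a library leaves 1 in a group. In control organoids against control AT2 cells 2 to 5 were called lower (5 with all). A group left with 1 library is assumed to vary like the other group. No call of a cathepsin gene changed its sign. Of the single cathepsin genes, 12 calls were lost and 1 gained in other settings, and 34 lost and 12 gained without 1 library. Of the pathway genes named with a call, Ctla2a not counted, 29 calls were lost in other settings and 61 without 1 library, and 0 changed sign. The cause was not tested.

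The labels do not say what a replicate number marks. The deviations of same-numbered libraries from their group means had correlations of -0.17 to 0.17 in AT2 cells, -0.15 to 0.0053 in lung at 6 days, 0.080 to 0.22 in lung at 6 months and -0.074 in organoids. At 6 months every library correlated best with the one of its own number, a hint from the data and not from the design, and 2 of the 4 pairs were under 0.1, so the numbers were not taken as pairs. With the replicate block 7 cathepsin genes were called higher in lung at 6 days in place of 9, 3 in AT2 cells, 9 at 6 months and 0 in organoids.

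Because TPM carry no depth, low genes such as Ctse and, in organoids, Ctsk and Ctss are limited by an unknown number of reads.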
